A study of Mus musculus with 4 samples.

Results

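The IL-12 family is a small group of secreted cytokines, each built from a helical alpha chain and a beta chain that resembles a soluble cytokine receptor. The 5 mouse genes of its subunits were followed here: Il12a, which encodes the alpha chain p35, Il23a, which encodes p19, Il27, which encodes p28, and the beta chain genes Il12b (p40) and Ebi3. They were taken by name, not by their values, and all 5 are among the 15935 genes listed in at least 1 library. Macrophages and dendritic cells make these cytokines when they sense microbes. IL-12 (p35 with p40) acts through STAT4 and directs T cells to make interferon gamma, IL-23 (p19 with p40) sustains T cells that make IL-17, IL-27 (p28 with Ebi3) can restrain T cell responses, and IL-35 (p35 with Ebi3) is described as suppressive. Both chains of a pair have to be made in the same cell for most of these cytokines to leave it, so the balance between the genes is of interest as well as each level.

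The RNA came from macrophages grown from bone marrow of adult C57BL/6 mice over 5 days in M-CSF conditioned medium, and was sequenced in 4 libraries. In the order used here they are KO LPS, WT LPS, KO NT and WT NT. KO cells came from ezh2f/f lysmcre mice, in which Cre made from the lysozyme M locus of myeloid cells deletes a floxed Ezh2, and are labelled EZH2-/-. WT cells came from wild type mice, and the labels do not say whether those carried a floxed allele or Cre. LPS, the bacterial ligand of Toll-like receptor 4, was given for 2 h, and NT cells were left untreated. Ezh2 is the main methyltransferase of Polycomb repressive complex PRC2, which marks H3K27. With 1 library in each group, no difference can be set against replicates and no p-value is given. How many mice gave the marrow is not said in the labels.

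The libraries held 5237782 to 5678451 expected counts, the authors' estimates of reads per gene. Ezh2 stood at 1.29 FPKM (fragments normalised for gene length and library size) in KO LPS and 2.52 in WT LPS, and at 2.06 FPKM in KO NT and 2.84 in WT NT, so its transcript was still detected in the KO libraries. The KO to WT ratio was 0.510 with LPS (exact 95% interval 0.274 to 0.915) and 0.722 without (0.440 to 1.17), so without LPS a loss of the targeted transcript was not detectable at this depth. The files give whole-gene values, so the deleted exons were not examined. All 7 macrophage markers were listed in every library, with summed levels of 3139 to 3524 FPKM. That near-level sum holds opposite moves with LPS. Cd14 had 1178 FPKM in KO LPS and 1263 in WT LPS, against 334 in KO NT and 323 in WT NT. Mertk had 6.76 in KO LPS and 7.32 in WT LPS, against 25.3 in KO NT and 21.7 in WT NT. Cd14 alone had an LPS to NT interval above 1, and the other 6 lay below 1 in both genotypes. The 7 had a median log2 fold of -0.30 with LPS in KO and in WT, where all genes had -0.42 and -0.46. KO to WT intervals with LPS lay above 1 for 2 of the 7 and below 1 for 3, against 21.0% and 9.45% of all genes. Without LPS, 4 lay above and 1 below, against 14.1% of all genes above. Adgre1 and Itgam were higher in KO in both states. The 8 markers of dendritic cells, the other main source of this family, were low but summed higher in KO, as Ebi3 did: 6.44 FPKM in KO LPS and 5.54 in WT LPS, and 5.93 in KO NT and 3.49 in WT NT. Itgax (1.82 to 2.87 FPKM), Xcr1 (0.65 to 2.32) and Ccr7 (0.37 to 1.75) carried most of that sum. With LPS these went both ways: Xcr1 had 2.07 FPKM in KO LPS and 2.32 in WT LPS, and Ccr7 1.19 in KO LPS (12 counts) and 0.37 in WT LPS (4 counts). Of the 3 dendritic markers that reached 1 FPKM with LPS, 0 had an exact 95% interval of the KO to WT ratio above or below 1. Without LPS, 2 of 2 lay above 1, against 14.1% of all genes. Flt3 and Zbtb46 had no more than 0.18 FPKM, and Cd209a was listed in KO LPS alone. The 6 T and NK cell markers summed to 0.31 to 1.18 FPKM, with Cd3e, Cd3g and Ncr1 listed nowhere, and 5 B cell markers to 0.76 to 3.71 FPKM. The sum of 8 neutrophil markers was higher in KO, carried by S100a8 and S100a9, at 553 FPKM in KO LPS and 404 in WT LPS, and 633 in KO NT and 371 in WT NT. With LPS, 5 of the 8 had exact 95% intervals of the KO to WT ratio above 1 and 0 below. Over all genes, 21.0% lay above and 9.45% below. Without LPS, 6 of the 7 that reached 1 FPKM lay above 1 and 0 below, against 14.1% of all genes above. Mpo was lower in KO NT, at 3.56 FPKM (52 counts) against 4.24 in WT NT (62 counts), though its interval was not below 1. Ly6g, the defining marker, had 0.69 FPKM in KO LPS (3.25 counts) and 1.18 in WT LPS (6 counts). It had 0 in KO NT and 0.23 in WT NT (1.19 counts), so its counts were too few for a direction. The 5 fibroblast markers were low and lower in KO, at 2.28 FPKM in KO LPS and 5.99 in WT LPS, and 3.56 in KO NT and 6.34 in WT NT. The part of these other cells in the differences given for the subunit genes was not tested. In bulk RNA, fewer cells that make a transcript and less transcript per cell cannot be told apart.

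The 5 genes lie on 5 chromosomes, so none shares a locus with another. In GRCm38, the assembly that mm10 denotes, Il12a (gene ID 16159) spans chromosome 3, 68690644 to 68698550, Il23a (83430) chromosome 10, 128296140 to 128298084, Il27 (246779) chromosome 7, 126589009 to 126595035, Il12b (16160) chromosome 11, 44400063 to 44414677, and Ebi3 (50498) chromosome 17, 55952623 to 55957022. A RefSeq table of promoter windows (250 bases before to 50 after the start of transcription, GRCm38.p6) held Il12b, Ebi3 and a pair of start sites of Il12a. The windows of Il12b, on chr11:44399813-44400112, and of Ebi3, on chr17:55952373-55952672, are shown because these beta chain genes differed before LPS: Il12b was nearly silent and Ebi3 was not. Both are on the plus strand, and capitals mark letters that match the NF-kB consensus on either strand.

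Il12b: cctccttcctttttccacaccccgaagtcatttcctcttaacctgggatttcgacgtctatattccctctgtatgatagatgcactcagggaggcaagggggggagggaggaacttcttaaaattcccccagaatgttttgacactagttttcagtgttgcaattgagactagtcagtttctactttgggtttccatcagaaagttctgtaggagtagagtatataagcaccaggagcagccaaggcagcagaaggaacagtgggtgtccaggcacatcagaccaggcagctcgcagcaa

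Ebi3: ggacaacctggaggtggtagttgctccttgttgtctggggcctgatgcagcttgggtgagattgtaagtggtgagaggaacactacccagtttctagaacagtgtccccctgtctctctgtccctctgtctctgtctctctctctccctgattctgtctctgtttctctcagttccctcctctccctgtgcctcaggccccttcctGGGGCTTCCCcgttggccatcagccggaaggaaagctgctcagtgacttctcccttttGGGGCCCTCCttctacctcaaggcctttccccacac

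NF-kB is the transcription factor family that Toll-like receptors activate within minutes. The Ebi3 window held its consensus at 44 bases before the start (GGGGCTTCCC, which matches on both strands) and at base 15 of the transcript (GGGGCCCTCC), whereas the Il12b window and both Il12a windows held no match. Of 32851 mouse promoter windows of this length, 8.46% held at least 1 match. Searches for an interferon response motif (GAAANNGAA, in 8.56% of windows), AP-1 (TGANTCA, 7.81%), a C/EBP-like motif (TTGCNNNAA, 9.56%) and a PU.1 core (GAGGAAG, 13.6%), on both strands, found none in any of the 4 windows. Absence of these letters says nothing about binding of the factors. CpG dinucleotides, which mark the promoters that PRC2 usually occupies, numbered 4 in the Il12b window and 2 in that of Ebi3, against a median of 7 over all windows. The Il12a windows differed from each other, with 3 and 16.

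Il12a, Il23a, Il27 and Il12b shared a feature at the other end of the transcript. In the longest annotated 3′ UTR of each gene (GENCODE M21), the pentamer ATTTA, the core of AU-rich elements through which proteins such as tristetraprolin speed mRNA decay, occurred 6 times in Il12a (497 bases), 6 times in Il23a (657 bases), 5 times in Il27 (285 bases) and 6 times in Il12b (797 bases). Ebi3 had 1 in 245 bases. Such counts are common: of 21022 genes, 16.9% had at least 6, 21.6% at least 5 and 65.2% at least 1. Per kilobase, Il12a, Il23a, Il27, Il12b and Ebi3 had 12.1, 9.13, 17.5, 7.53 and 4.08 occurrences. The median gene of 19924 with a 3′ UTR of at least 100 bases had 1.35. A density as high as that of Il27 was found in 0.136% of those genes, as high as that of Il12b in 2.32%, and as high as that of Ebi3 in 12.2%. The count was added after the expression values were known.

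The beta chain Il12b went with the inflammatory programme. It had 155 FPKM in KO LPS (2041.76 counts) and 240 in WT LPS (3389 counts), against 0.14 in KO NT (2 counts) and 0.28 in WT NT (4 counts). Both LPS libraries were far above both NT libraries, and the KO LPS library held less than WT LPS. With LPS the gene ranked 495th of 13956 listed genes in KO and 322nd of 13972 in WT.

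Its beta chain counterpart Ebi3 behaved otherwise, with a high level before stimulation. It had 175 FPKM in KO LPS (1071 counts) and 141 in WT LPS (933 counts), against 63.8 in KO NT (423 counts) and 45.9 in WT NT (305 counts). The level was higher in LPS than in NT libraries, and higher in KO than in WT in both states. In NT cells Ebi3 made up 96.6% of the summed FPKM of the 5 genes in KO and 96.7% in WT. With LPS its share was 35.6% in KO and 23.6% in WT. That of Il12b was then 31.6% in KO and 39.9% in WT, and that of Il27 31.8% in KO and 35.0% in WT. These shares depend on the gene lengths. Of the summed counts, Il12b made up 55.1% in KO LPS and 65.2% in WT LPS, Ebi3 28.9% in KO LPS and 18.0% in WT LPS, and Il27 15.0% in KO LPS and 15.5% in WT LPS.

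Among the alpha chains, Il27 was the abundant one. It had 156 FPKM in KO LPS (557 counts) and 210 in WT LPS (804 counts), against 2.08 in KO NT (8 counts) and 1.29 in WT NT (5 counts). Il23a was listed in the LPS libraries alone, at 4.12 FPKM in KO LPS (29 counts) and 8.97 in WT LPS (68 counts). A count of 0 in an NT library still allows 3 counts, or 0.393 FPKM in either genotype. Il12a, the chain that makes IL-12 itself, was at the edge of detection, with 0.61 FPKM in KO LPS (4 counts) and 0.14 in WT LPS (1 count). It was listed in neither NT library, where up to 0.423 FPKM in KO and 0.422 in WT would be allowed. The alpha chain levels with LPS therefore ran Il27, Il23a, Il12a from high to low in both genotypes, and the exact 95% counting intervals of Il27, Il23a and Il12a did not overlap within a library. The order of the whole family by FPKM differed between KO LPS and WT LPS. In KO LPS it ran Ebi3, Il27, Il12b, Il23a, Il12a, and the interval of Il27 (144 to 170 FPKM) overlapped both that of Ebi3 (164 to 186) and that of Il12b (149 to 162). In WT LPS it ran Il12b (232 to 248 FPKM), Il27 (195 to 225), Ebi3 (133 to 151), Il23a, Il12a, with no overlap between neighbours. FPKM rests on the deposited gene lengths, and by counts the order was Il12b, Ebi3, Il27, Il23a, Il12a in both. The 2505 bases given for Il12b exceed the 1861 and 1944 bases of its GENCODE transcripts. At the same counts a shorter length would raise its FPKM, but counts over a shorter transcript were not examined.

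**Figure D1:**
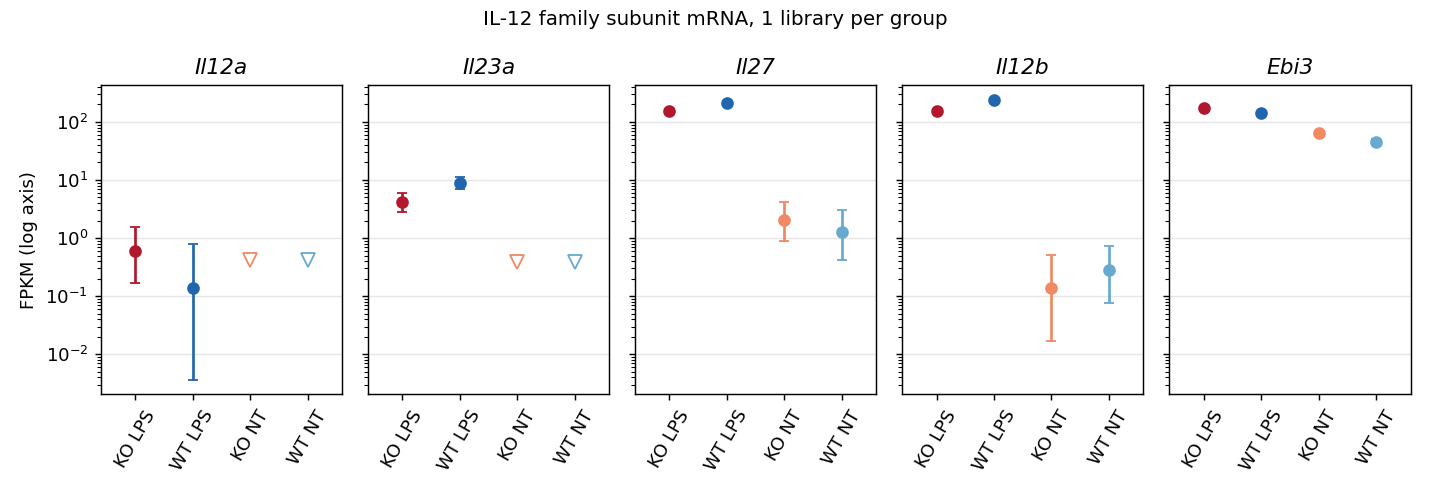
FPKM of each subunit gene on a log axis in KO LPS, WT LPS, KO NT and WT NT. Points are single libraries, bars are exact 95% Poisson intervals (counting error only), and open triangles mark the level of 3 counts where the gene was not listed. Il12b and Il27 stand above 100 FPKM with LPS and below 3 without it, while Ebi3 stands above 40 FPKM in all 4 libraries.

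The LPS response of the family was measured in KO and in WT cells. On the scale used for all genes, log2 of (FPKM + 1) over (FPKM + 1), 4 of the 5 genes reached 1 FPKM in a library compared, and all 4 were at least 2-fold higher with LPS in KO, as were the same 4 in WT. With a pseudocount of 5 FPKM, Il23a in KO was no longer 2-fold higher (0.87), which left 3. Il12a did not reach 1 FPKM and was not placed on it. Il12b and Il23a reached 1 FPKM through the LPS libraries alone and so had to be higher there, which makes this count and the medians a description only. Of all genes so measured, 6.61% of 11069 were at least 2-fold higher with LPS in KO and 6.41% of 10972 in WT. The 4 genes had a median log2 fold of 4.02 in KO, where the median of all genes was -0.42, and of 4.92 in WT, where it was -0.46. Median-ratio scaling brings the median of all genes to -0.03 in both, and then 1073 genes were higher and 752 lower in KO, in place of 732 and 1668, and 1050 higher and 825 lower in WT, in place of 703 and 1887.

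Il12b had 1105 times as much FPKM in KO LPS as in KO NT, with an exact 95% interval of 306 to 9131. In WT the ratio was 854 (333 to 3135). The width comes from the 2 counts of KO NT and the 4 of WT NT. Its log2 folds of 7.10 in KO and 7.55 in WT were the 10th highest of 11069 genes and the 7th highest of 10972.

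Il27 was 75.4 times as high with LPS in KO (38.0 to 175) and 162 times in WT (69.1 to 500.4). Il23a was at least 10.5-fold higher with LPS in KO and at least 22.8-fold higher in WT, taking 3 counts as the limit of each NT library. The exact lower limits for Il23a, which also hold the error of the LPS counts, were 7.98 in KO and 18.1 in WT. For Il12a, with 4 counts in KO LPS, 1 in WT LPS and none in NT, the lower limits of 0.714 in KO and 0.0258 in WT lie below 1 and give no direction. Ebi3 had the smallest ratios of those with a value, 2.74 in KO (2.45 to 3.07) and 3.08 in WT (2.70 to 3.52). All of these intervals reflect counting alone and leave out how far cultures or animals vary.

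Whether the genotypes differed in the size of the response was read from the ratio of the 2 ratios, KO over WT. It was 1.29 for Il12b (conditional exact interval 0.185 to 14.3), 0.465 for Il27 (0.119 to 1.62) and 0.890 for Ebi3 (0.746 to 1.06). Each interval includes 1, and those of Il12b and Il27 are wide because NT counts are few, so a difference in response was not detectable at this depth for these genes.

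**Figure D2:**
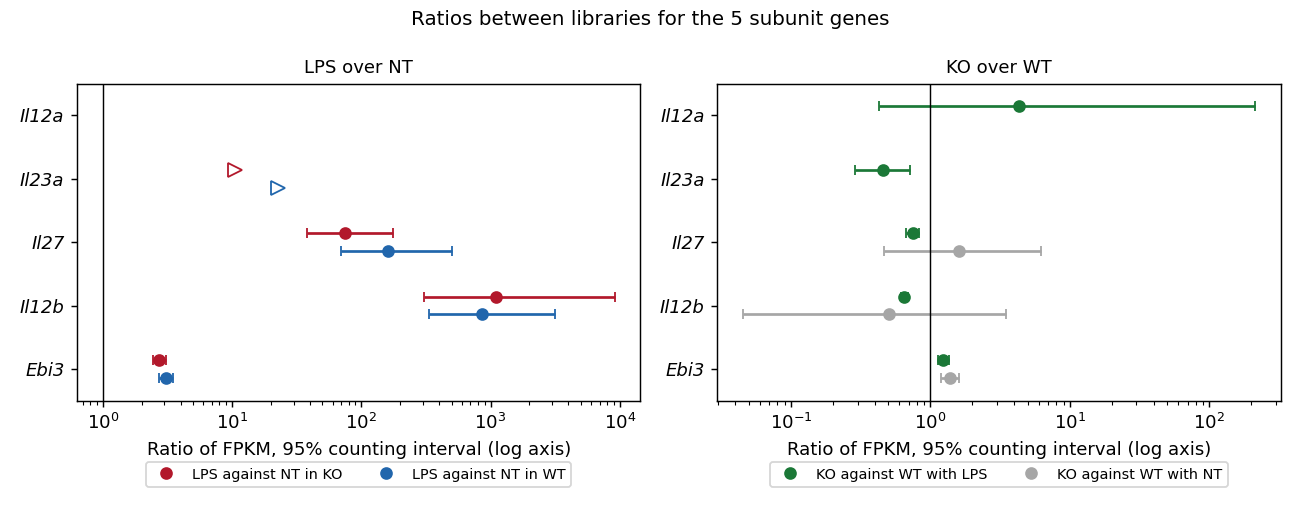
Ratios of FPKM for the 5 subunit genes on log axes, LPS over NT in KO and WT at the left and KO over WT with LPS and NT at the right. Bars are exact 95% counting intervals and open arrowheads, for Il23a, are lower bounds against 3 counts. Il12a has no LPS ratio. The LPS ratios of Il12b are 1105 in KO and 854 in WT and those of Ebi3 2.74 and 3.08, and with LPS the KO to WT ratios of Il23a, Il27 and Il12b lie below 1 and that of Ebi3 above 1.

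With LPS, the KO library held less of 3 of the subunit transcripts and more of Ebi3. The KO to WT ratio was 0.459 for Il23a (0.286 to 0.718), 0.648 for Il12b (0.614 to 0.685) and 0.746 for Il27 (0.668 to 0.832). For Ebi3 it was 1.24 (1.13 to 1.35). The intervals of those 3 genes lie below 1, as did those of 9.45% of 10375 genes, and the interval of Ebi3 lies above 1, as did those of 21.0%. For Il12a the ratio of 4.30 has an interval of 0.426 to 212, so 4 counts against 1 give no direction.

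On the log2(FPKM + 1) scale, none of the 4 measured members was at least 2-fold apart between KO and WT with LPS. That size was passed upward by 1.45% of genes (150 genes) and downward by 1.12% (116 genes). On CPM, with no gene length, these were 232 and 116 genes. Il23a was just short of 2-fold on that FPKM + 1 scale at -0.96, and past it with a pseudocount of 0.1 FPKM (-1.10) or median-ratio scaling. Its plain KO to WT ratio of 0.459, with nothing added, is also past 2-fold. On the FPKM + 1 scale Il23a was followed by Il12b at -0.62, Il27 at -0.42 and Ebi3 at 0.30, where the median gene was at 0.08. Against 524 genes of at least 50 counts that were at least 2-fold higher with LPS in both genotypes, whose log2 folds of KO over WT with LPS had a median of 0.06 and quartiles of -0.22 and 0.30, Il23a had 25 genes below it, Il12b 55, Il27 86 and Ebi3 395. These genes were chosen with the same LPS libraries and the members are among them, so the ranks are a description.

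Without LPS, Ebi3 was the one member with enough counts to compare. Its KO to WT ratio of 1.39 (1.20 to 1.61) lies above 1, as did the intervals of 14.1% of 10990 genes. On the log2 scale it was 0.47, where the median gene was at 0.02. Il27, at 8 counts in KO NT and 5 in WT NT, had a ratio of 1.60 (0.462 to 6.23), and Il12b, at 2 counts in KO NT and 4 in WT NT, a ratio of 0.501 (0.0453 to 3.49). Neither Ebi3 nor Il27, the 2 members that reached 1 FPKM, was at least 2-fold apart, against 0.928% of genes higher and 0.883% lower. Ebi3 was thus higher in KO than in WT in both states.

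Setting members against each other within a library removes the library total from the comparison. With LPS, Il12b relative to Ebi3 was 0.525 times as high in KO as in WT (conditional exact interval 0.473 to 0.583), Il27 relative to Ebi3 0.604 times (0.524 to 0.695) and Il23a relative to Ebi3 0.372 times (0.230 to 0.588). Among those 3 genes, Il12b relative to Il27 was at 0.870 (0.769 to 0.984), Il23a relative to Il27 at 0.616 (0.379 to 0.979), and for Il12b relative to Il23a the interval of 0.899 to 2.27 around 1.41 includes 1.

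Per length, the chain in excess within the IL-27 pair differed between the LPS libraries. Ebi3 stood at 1.12 times the FPKM of Il27 in KO LPS (1.01 to 1.24) and at 0.674 times in WT LPS (0.613 to 0.742). The lower of the pair was therefore Il27 in KO LPS, at 156 FPKM, and Ebi3 in WT LPS, at 141 FPKM. Before LPS, Ebi3 was in large excess, 30.7 times Il27 in KO NT (15.5 to 71.6) and 35.5 times in WT NT (15.0 to 109.97). These ratios between genes rest on the deposited gene lengths, and the 705 bases given for Il27 equal its coding sequence, while GENCODE lists a transcript of 1021 bases. By counts, with no length, Ebi3 exceeded Il27 in both, at 1.92 times in KO LPS and 1.16 times in WT LPS. The comparison of KO with WT does not depend on the lengths.

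For the p40 cytokines the beta chain was in excess in both LPS libraries. Il12b was at 37.7 times the FPKM of Il23a in KO LPS (26.2 to 56.5) and 26.7 times in WT LPS (21.0 to 34.5), and these intervals overlap. Against Il12a it was at 255 times in KO LPS (99.3 to 936) and 1691 times in WT LPS (303 to 66796). In the NT libraries, 2 counts of Il12b in KO and 4 in WT against none of Il12a or Il23a give no direction. The IL-35 pair was also uneven, with Ebi3 at 287 times Il12a in KO LPS (112 to 1054) and 998 times in WT LPS (179 to 39477). The size of these ratios also rests on the deposited gene lengths, and that of Il12b exceeds its GENCODE transcripts. RNA ratios do not give the amounts of protein or of assembled dimers.

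**Figure D3:**
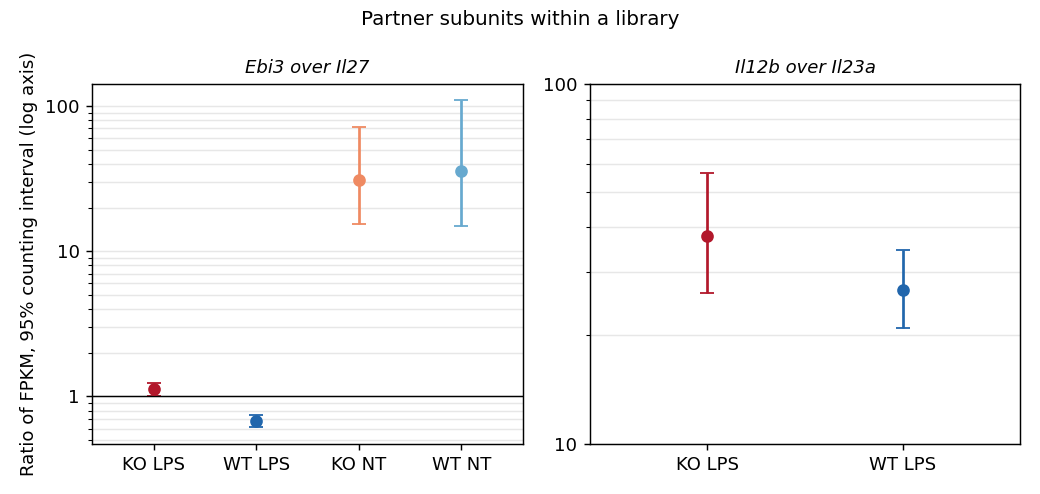
Ratio of FPKM between partner chains within a library on log axes, Ebi3 over Il27 in KO LPS, WT LPS, KO NT and WT NT at the left and Il12b over Il23a in the LPS libraries at the right, with exact 95% counting intervals. Ebi3 over Il27 is at 1.12 in KO LPS and 0.674 in WT LPS, and at 30.7 in KO NT and 35.5 in WT NT.

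A few features of the gene models touch single values. The exons of Ebi3 share 270 of 1154 bases with Gm16712, an antisense gene on the minus strand, which had 43.4 FPKM in KO LPS and 32.1 in WT LPS, against 8.21 in KO NT and 5.97 in WT NT. This partner was higher in KO and higher with LPS, as Ebi3 was, and if reads were counted without regard to strand those of the shared bases cannot be told apart. Il27 shares 103 of 1021 exon bases with Apobr on the other strand, a lipoprotein receptor gene, which differed little between libraries (67.9 FPKM in KO LPS and 64.9 in WT LPS, against 57.6 in KO NT and 53.7 in WT NT). The fractional count of Il12b in KO LPS shows that some of its reads were split with another gene. Stat2, the nearest listed gene before Il23a at 3287 bases, had 44.3 FPKM in KO LPS and 62.5 in WT LPS, against 66.2 in KO NT and 96.8 in WT NT, so it was lower with LPS where Il23a was higher.

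The genes whose pattern over the 4 libraries was most like each member were found by the Euclidean distance of log2(FPKM + 1), after subtracting each gene's mean, among 9218 genes of at least 50 counts in a library. Nearest to Il12b were Tnf, the tumour necrosis factor gene (distance 0.45, with 2135 FPKM in KO LPS and 4172 in WT LPS, against 21.1 in KO NT and 25.2 in WT NT), Il1a (0.46) and Tnfsf9 (0.59). Nearest to Il27 were Mir155hg, the host gene of the microRNA miR-155 (0.36, with 77.1 FPKM in KO LPS and 102 in WT LPS, against 0.14 in either NT library), Bcl2a1a (0.54) and Cxcl3 (0.55), the last 2 with fractional counts that show reads shared with other genes. Nearest to Il23a were Areg, an EGF receptor ligand gene (0.28, with 4.94 FPKM in KO LPS, 11.5 in WT LPS and listed in neither NT library), F3 (0.32) and Cited2 (0.35). Nearest to Ebi3 were Heca (0.10, with 37.5 FPKM in KO LPS and 27.6 in WT LPS, against 12.1 in KO NT and 8.64 in WT NT), Calcrl (0.12) and Swap70 (0.12). With 4 libraries such likeness is a description.

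The receptor chains for these cytokines were mostly low in the macrophages themselves. Il23r was listed in no library, and Il12rb1, shared by the IL-12 and IL-23 receptors, had 0.26 FPKM in KO LPS and 0.43 in WT LPS, against 0.12 in KO NT and 0.37 in WT NT. Il27ra had at most 0.79 FPKM, in KO NT. Il12rb2 had 3.83 FPKM in KO LPS and 4.21 in WT LPS, against 4.95 in KO NT and 3.16 in WT NT. Il6st, which encodes the gp130 chain of the IL-27 receptor, was the abundant one, and lower with LPS in both genotypes: 15.1 FPKM in KO LPS and 13.2 in WT LPS, against 52.1 in KO NT and 44.6 in WT NT. It was 1 of the 2 receptor genes of 5 measured on the log2 scale and the only one of them at least 2-fold lower with LPS, at -1.72 in KO and -1.69 in WT, a size that 15.1% of all genes passed downward in KO and 17.2% in WT.

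Of 6 signalling genes behind these receptors, 5 were measured, and Jak2 alone was at least 2-fold higher with LPS in either genotype, a size that 6.61% of all genes passed in KO and 6.41% in WT. It was at 118 FPKM in KO LPS and 98.6 in WT LPS, against 11.5 in KO NT and 10.8 in WT NT. Stat4, through which IL-12 acts in lymphocytes, stayed at or below 0.66 FPKM. The interferon gamma gene Ifng and the genes Il17a and Il22 of T cells that respond to IL-12 or IL-23 were listed in no library, while Il17f had 1 count and Tbx21 2 counts in KO NT and none elsewhere.

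The transcription factors known to act on these promoters were mostly induced by LPS and differed both ways between genotypes. Of 10 measured, 6 were at least 2-fold higher with LPS in KO and 6 in WT, against 6.61% of all genes in KO and 6.41% in WT, with median log2 folds of 1.63 in KO and 1.40 in WT. Rel, the NF-kB subunit on which Il12b and Il23a induction depends in mice, had 92.8 FPKM in KO LPS and 97.5 in WT LPS, against 5.65 in KO NT and 7.55 in WT NT. Nfkbiz, a nuclear IkB protein, had 467 FPKM in KO LPS and 480 in WT LPS, against 17.9 in KO NT and 11.4 in WT NT. Irf1, an activator of Il12b and Il27, was lower in KO with LPS, at 354 FPKM in KO LPS and 463 in WT LPS, and Cebpb was higher, at 110 FPKM in KO LPS and 75.0 in WT LPS. In KO against WT with LPS none of the 10 was at least 2-fold apart, where 1.45% of all genes were higher and 1.12% lower. For 3 the intervals lay above 1 and for 3 below, against 21.0% and 9.45% of all genes, and the median log2 fold was -0.05.

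Genes known to hold this family back stood higher in KO with LPS, with 1 exception. Of 5, 4 had intervals above 1 and 1 below, where 21.0% of all genes lay above and 9.45% below, at a median log2 fold of 0.41. Il10, the cytokine that suppresses Il12b transcription in macrophages, had 191 FPKM in KO LPS and 92.9 in WT LPS, against 5.74 in KO NT and 5.32 in WT NT. It was the only one of the 5 at least 2-fold higher in KO with LPS, as were 1.45% of all genes. None was at least 2-fold lower, as were 1.12% of all genes. Bcl3, an IkB family protein, had 113 FPKM in KO LPS and 60.6 in WT LPS. Nfil3, a repressor of Il12b, had 66.0 FPKM in KO LPS and 49.5 in WT LPS. Zfp36, which encodes tristetraprolin, had 587 FPKM in KO LPS and 515 in WT LPS. Atf3, a repressor that Toll-like receptors induce, went the other way, with 209 FPKM in KO LPS and 373 in WT LPS. Without LPS the median of the 5 was 0.09 and none was at least 2-fold apart, where 0.928% of all genes were higher and 0.883% lower. The interval of 1 of the 5 then lay above 1, as did those of 14.1% of all genes. The list was chosen with earlier results of these libraries known, in which Il10 had been seen to differ. The counts of this list are therefore a description and no independent support. No relation between these genes and the subunit genes was tested.

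Other signals by which macrophages direct T cells were lower in KO with LPS in 5 of 8 genes by their intervals, and 1 was above, against 9.45% of all genes below and 21.0% above. Il6 was at 33.8 FPKM in KO LPS and 132 in WT LPS, and was the only one at least 2-fold lower, as were 1.12% of all genes. Tgfb1 was the 1 above, at 170 FPKM in KO LPS and 159 in WT LPS. Il15 had 88.8 FPKM in KO LPS and 121 in WT LPS, and the costimulatory ligand gene Cd80 had 7.56 FPKM in KO LPS and 11.6 in WT LPS. Il1b and Cd40, also among the 5, were nearer to level, with 2035 FPKM in KO LPS and 2207 in WT LPS for Il1b and 303 in KO LPS and 321 in WT LPS for Cd40. The list's median log2 fold was -0.21, beside the 0.08 of all genes. The lists of activators and of these signals were also chosen with earlier results of these data known. All of these genes were read from the same 4 libraries, and no relation between them and the subunit genes was tested.

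**Figure D4:**
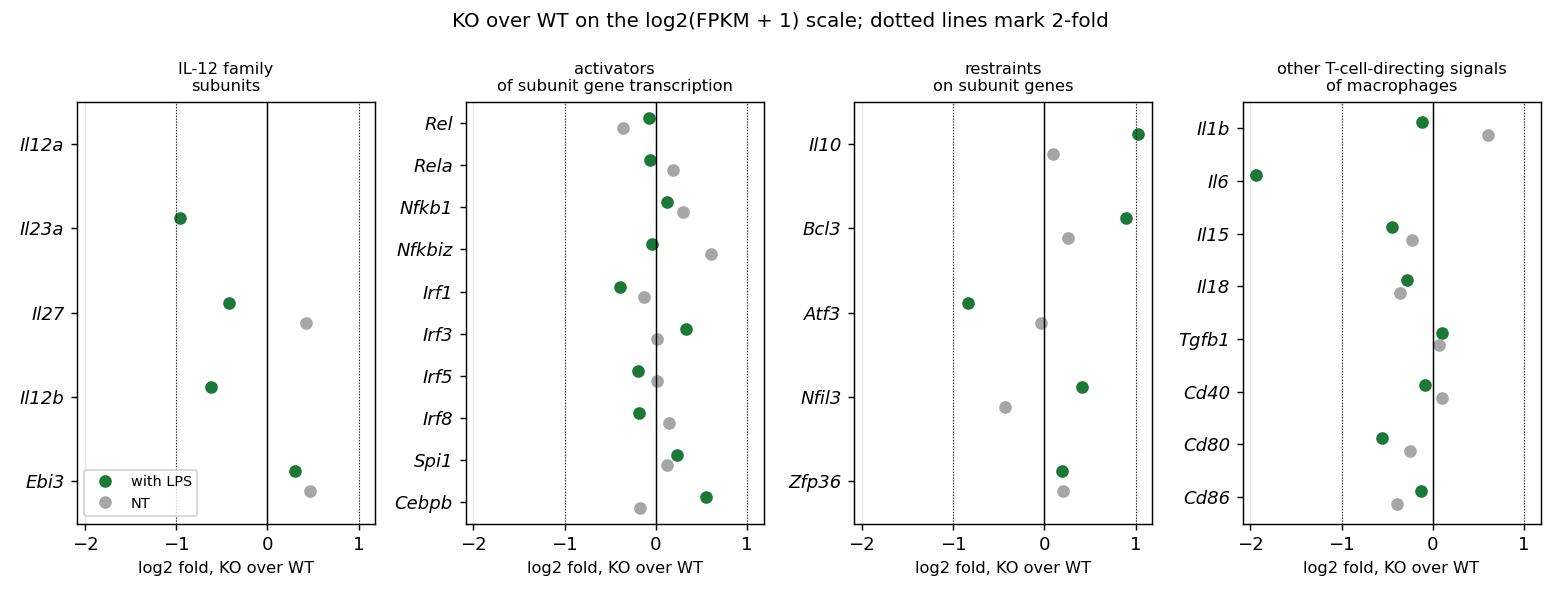
Log2 fold of KO over WT on the log2(FPKM + 1) scale, with LPS in green and NT in grey, for the subunit genes, transcriptional activators, restraints and other T-cell-directing signals. Dotted lines mark 2-fold, genes below 1 FPKM in both libraries have no point, and each point compares single libraries. Il23a at -0.96 and Il6 at -1.94 with LPS lie furthest to the left in their groups, and Il10 at 1.03 furthest to the right.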

How the data were processed

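Per the labels' protocols, macrophage RNA was extracted with Trizol and a column and read on a HiSeq instrument, with 1 library in each of 4 groups, named by their titles. Bowtie, RSEM and mm10 are named in the submitters' processing notes. Not given in the sources used here: versions, annotation and strand setting. The deposited expected count is the authors' estimate of reads per gene, rounded here to whole numbers for intervals, and the deposited FPKM is the authors' value per length and library size. Reads that match more than 1 gene are divided between the genes, and a gain of some genes lowers the share of all others. The deposited length is a column named in the file headers and is the same in every library for each of the 5 genes.

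A gene missing from a table was set to 0. Symbols and coordinates came from a RefSeq table of GRCm38.p6, which matched 15897 of 15935 gene identifiers. Log2 folds use FPKM + 1 and were kept for genes that reach 1 FPKM in a library compared, and 2-fold is a rule of size, not a test. Ratios of FPKM have exact 95% Clopper-Pearson intervals from the counts, ratios of ratios conditional exact intervals, levels exact Poisson intervals, and bounds against 0 use 3 counts per library. All cover counting error only, and PCR copies of 1 molecule cannot be told from separate molecules. Where either library had fewer than 100 counts of a gene, the ratio was taken from counts over library totals, since FPKM is rounded to 2 decimals. Named were the 5 genes, Ezh2, members of fixed lists and the 3 genes nearest in pattern to each member of at least 50 counts. The neighbours by position, the ATTTA count and the set of induced genes were chosen after values were seen. The members and lists were chosen with earlier results of these data known. Computations used Python 3.11.15, NumPy 2.4.6, pandas 2.3.3 and SciPy 1.17.1, and were tested on simulated counts. The alternatives were pseudocounts of 0.1 and 5 FPKM, no filter, a filter of 5 FPKM, equal sums, median-ratio scaling, CPM from expected counts, rules of 1.5-fold and 3-fold, and, added after seeing the data, 3 counts in place of 0 and shares of the family by counts.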

Additional observations from a re-analysis of the deposited data

Results flagged for a closer look

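Il27 lay on opposite sides of WT in the 2 states: its log2 fold of KO over WT was -0.42 with LPS and 0.43 without, from 557 counts in KO LPS and 804 in WT LPS, and 8 counts in KO NT and 5 in WT NT. The difference was not tested, since each group is 1 library, and the interval of the ratio of LPS ratios, 0.119 to 1.62, includes 1.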

How the results depend on the processing

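No paired analysis was possible because each group has 1 library, and for the same reason no replicate could be left out. In each comparison where a member was measured, its log2 fold kept its sign under every alternative run. Folds of KO over WT with LPS ran from -1.10 to -0.62 for Il23a, -0.69 to -0.58 for Il12b, -0.49 to -0.38 for Il27 and 0.24 to 0.35 for Ebi3. LPS folds ran from 0.87 to 5.40 in KO and 1.48 to 6.50 in WT for Il23a, whose NT libraries are at 0, from 4.96 to 9.34 in KO and 5.53 to 9.30 in WT for Il12b, from 4.51 to 6.17 in KO and 5.09 to 7.24 in WT for Il27, and from 1.39 to 1.86 in KO and 1.52 to 2.07 in WT for Ebi3. In KO, 3 members in place of 4 were called higher with LPS at a pseudocount of 5 FPKM and with a filter of 5 FPKM (without Il23a) and under the 3-fold rule (without Ebi3), and in WT all 4 were called under each setting. Il23a passed the 2-fold rule downward in KO with LPS at a pseudocount of 0.1 FPKM and under median-ratio scaling, so the count of members at least 2-fold lower became 1 in each, in place of 0. At 1.5-fold it became 2.

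Ratios between partner chains set by counts, with no gene length, were 70.4 in KO LPS and 49.8 in WT LPS for Il12b over Il23a, and 1.92 in KO LPS and 1.16 in WT LPS for Ebi3 over Il27, so the excess of Il27 in WT LPS rests on the per-length scale. The background counts over all genes moved by more than 1.5 times as follows. For LPS in KO (732 higher, 1668 lower), lower genes numbered 2514 and 399 at pseudocounts of 0.1 and 5 FPKM and 752 under median-ratio scaling. There the 1.5-fold rule gave 1136 higher and 4130 lower and the 3-fold rule 469 and 362. For LPS in WT (703 and 1887), lower genes numbered 452 at a pseudocount of 5, 825 under median-ratio scaling and 4457 at 1.5-fold, and the 3-fold rule gave 439 higher and 459 lower. For KO against WT with LPS (150 and 116), higher and lower genes numbered 343 and 198 at a pseudocount of 0.1, 32 and 37 at 5, 65 and 62 with a filter of 5 FPKM, 590 and 348 at 1.5-fold and 51 and 49 at 3-fold, and CPM gave 232 higher. For KO against WT with NT (102 and 97) they numbered 264 and 198, 22 and 23, 40 and 43, 428 and 336, and 46 and 40 in the same order of settings. Few NT counts limit the LPS ratios of Il12b, Il27 and Il23a, and Il12a was too low at this depth for any direction.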
